A study of Mus musculus with 9 samples.

Results

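The integrated stress response is followed here through 10 genes, which were named one by one as its kinases, transcription factors and immediate targets. They are the kinase genes Eif2ak1, Eif2ak3 and Eif2ak4, the transcription factor genes Atf4, Atf3, Atf5 and Ddit3, and the target genes Trib3, Chac1 and Ppp1r15a. The rule that names them uses no measured value, although earlier results of these data were known when they were chosen. The deposited table holds 36410 rows of gene symbols, and each of the 10 genes has 1 row.

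In the integrated stress response, kinases that sense different kinds of damage phosphorylate the same site on the alpha subunit of eIF2, the factor that brings the initiator tRNA to the ribosome. Most translation then slows, while a few mRNAs with short upstream reading frames, among them that of ATF4, are translated better. ATF4 switches on genes for amino acid supply, tRNA charging and redox balance, together with the factors ATF3 and CHOP, and with GADD34, which returns the phosphatase to eIF2. Protein aggregates, endoplasmic reticulum stress and mitochondrial damage, which are all studied in Huntington disease, are among its known triggers.

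Ribosome profiling counts the mRNA fragments that ribosomes shield from nuclease. It was done in 3 immortalized striatal cell lines of a knock-in model, made from embryos of C57/BL6 mice. The control line has 2 Htt alleles of 7 glutamine codons (STHdhQ7/Q7), and the study's paper calls its embryos WT. The HD-het line has 1 allele of 7 and 1 of 111 (STHdhQ7/Q111), and the HD-homo line has 2 alleles of 111 (STHdhQ111/Q111). No cell received a stress treatment. In all lines the medium was changed 2 h before cycloheximide, which freezes elongating ribosomes, was added for 10 min. Each line gave 3 libraries, and the series' design text names 3 separate rounds of culture, without tying libraries to rounds. Each genotype was 1 line, so genotype and line cannot be told apart, and a change in all cells cannot be told apart from a change in some of them.

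The libraries held 22504543 to 41888701 counts, and levels are given as CPM, the count after scaling each library's TMM-adjusted sum to 1e6. A gene without a count in 1 library could still be present at up to 3 counts, or 0.0716 to 0.133 CPM, a limit of counting error only. The lowest count of any of the 10 genes in any library was 79. Of 13 markers of striatal neurons 2, the dopamine receptor genes Drd1 and Drd2 (named after their values were seen), had no count in any library. The list's sum was 44.9 to 75.5 CPM, of which most came from Foxp1, at 32.4 to 61.9 CPM, and Ppp1r1b, which encodes DARPP-32, at 3.30 to 16.1 CPM. Of 8 neural precursor markers, 5 of 7 tested were lower in the HD-homo than in the control line and 2, Fabp7 and Dlx2, were higher (log2 fold change 1.37 and 1.10, adjusted p = 0.00701 and 0.00956), and the list's sum, mostly Vim, was 6017 to 6550 CPM in HD-homo and 9018 to 9865 in the other libraries. Of 8 markers of mesenchymal and smooth muscle cells, 7 were tested and all 7 were higher in the HD-het than in the control line, and the other, Thy1, had almost no counts. Their summed level was 27813 to 29446 CPM in HD-het, 6648 to 9293 in control and 5345 to 6821 in HD-homo libraries. Of all genes tested, 22.3% were lower and 23.3% higher in HD-homo than in control, and 31.0% were higher in HD-het than in control. The part of these markers in the differences below was not tested.

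In the HD-het line 7 of the 10 genes were higher than in the control line and 1 was lower, while 31.0% of the 12678 genes tested were higher and 29.1% lower (edgeR's quasi-likelihood test, Benjamini-Hochberg adjusted p under 0.05). The median log2 fold change was 1.00 over the 10 genes and 0.02 over all genes tested. In the HD-homo line 3 of the 10 were higher than in the control line and 0 were lower, against 23.3% and 22.3% of all genes tested, and the median of the 10 was 0.28. Counted at an unadjusted p under 0.05, or by DESeq2, the number lower was 0 as well. In the HD-homo compared with the HD-het line 6 of the 10 were lower and 1 was higher, against 32.8% and 34.6% of all genes tested. The levels of 2 lines did not overlap for 9 of the 10 genes in HD-het against control (71.2% of all genes tested), for 4 in HD-homo against control (55.5%) and for 7 in HD-homo against HD-het (69.5%). A test of any difference among the 3 lines called 8 of the 10 genes and 78.4% of all genes. Control cells enter both of the first comparisons, so the 2 sets of values are not independent.

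**Figure D1:**
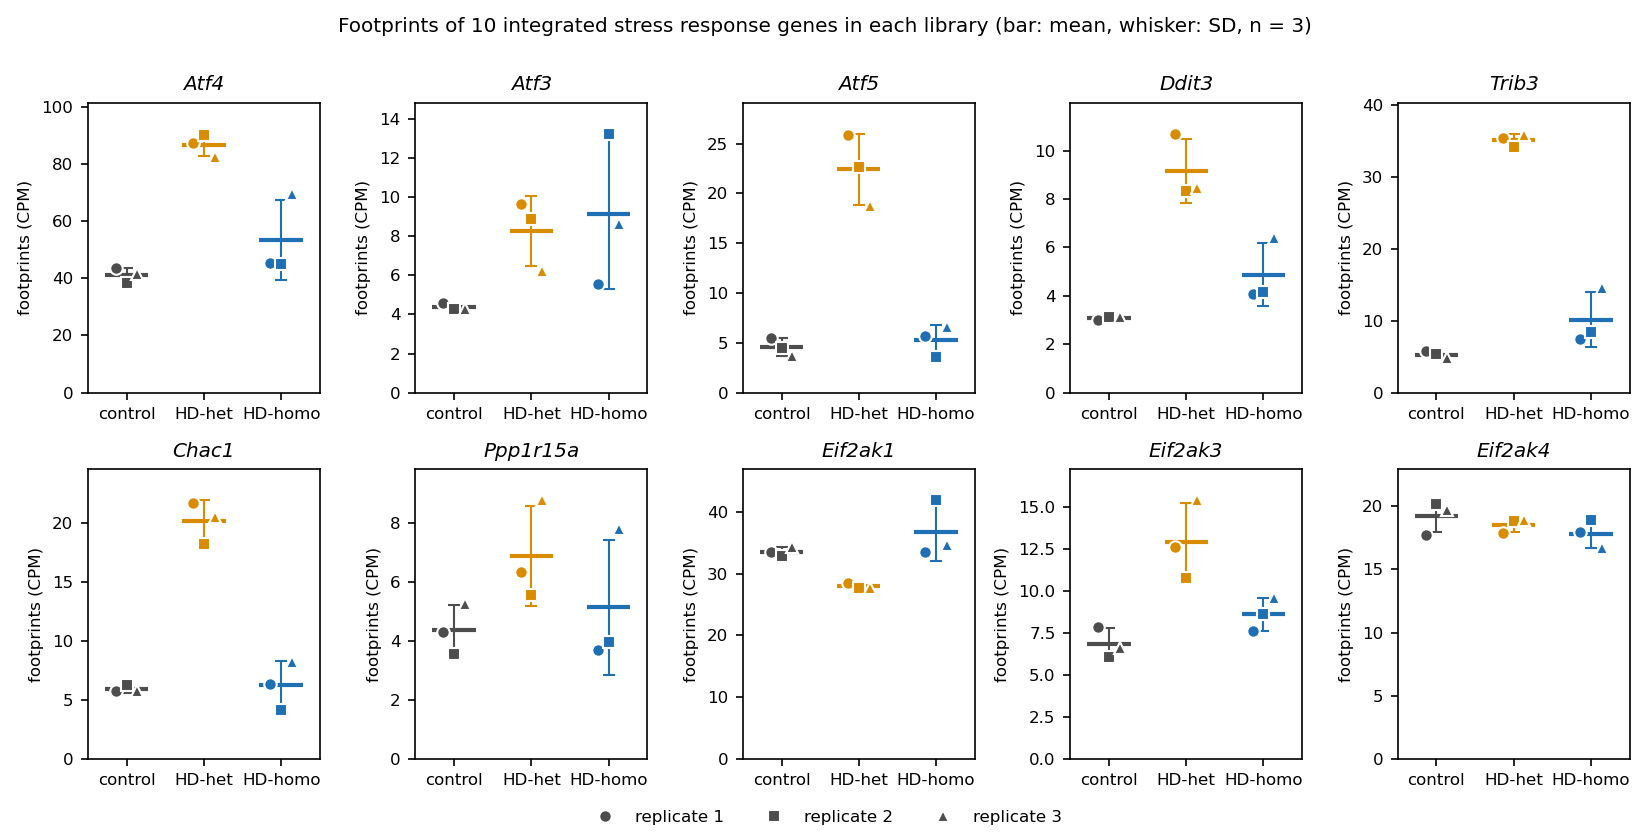
Footprints of the 10 genes in CPM (vertical axes, each starting at 0) in the 3 libraries of each line; symbols mark the replicate number, the horizontal bar the mean and the whisker the SD. The 3 HD-het libraries stand apart above the others for Atf4, Atf5, Ddit3, Trib3, Chac1 and Eif2ak3, and the HD-homo libraries have the widest spread relative to their mean for 8 of the 10 genes.

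**Figure D2:**
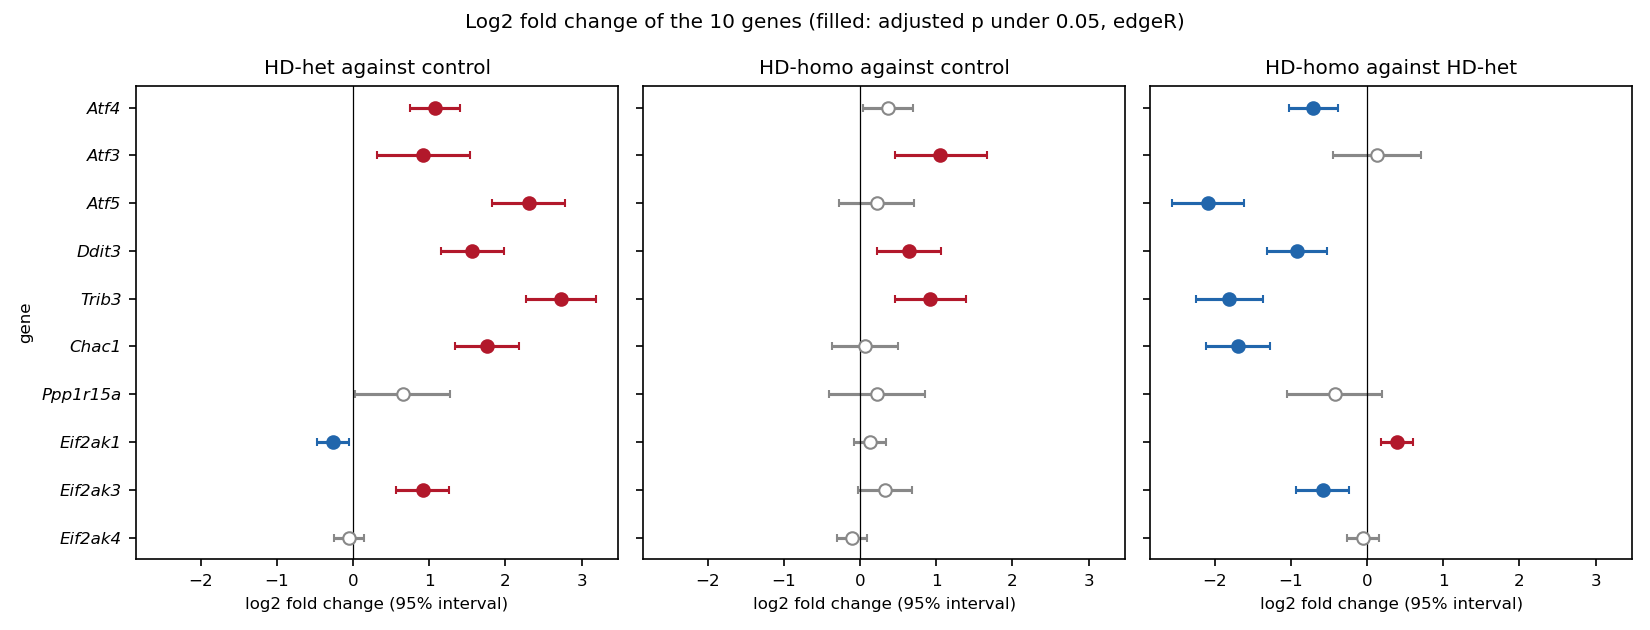
Log2 fold change of each of the 10 genes (horizontal axis) in the 3 comparisons, with 95% intervals from the edgeR fit; filled symbols passed the adjusted p of 0.05, red higher and blue lower. Of the filled symbols, 7 lie to the right and that of Eif2ak1 to the left in HD-het against control. In HD-homo against control 3 filled symbols lie to the right. In HD-homo against HD-het 6 filled symbols lie to the left and that of Eif2ak1 to the right.

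Among the promoters of the 10 genes, a script looked for 3 elements on both strands in the 250 bases before the start site, to show which of the genes carry letters that factors of this family are known to bind. RefSeq (GRCm38.p6) gave 12 such promoters, with at least 1 for each gene. The element TGATGNAA, the composite of a C/EBP and an ATF half-site to which ATF4 binds, was found before Atf3 and Chac1, and in 3.45% of all 32851 promoters. The element TGACGTCA, the palindromic site of CREB and ATF factors, was found before Ppp1r15a, and in 1.55% of all promoters. The element CCAAT-N9-CCACG, to which ATF6 and XBP1 bind, was found before 0 of the 10 genes and in 0.113% of all promoters. The windows of 80 bases that hold the matches are shown on the strand of the gene, with the match in capitals, and the first 2 matches lie on the opposite strand, so that they read TTGCATCA. The Atf3 match lies 103 bases before the start site, the Chac1 match 186 bases and the Ppp1r15a match 5 bases.
Atf3 (chr1:191183400-191183479, minus strand): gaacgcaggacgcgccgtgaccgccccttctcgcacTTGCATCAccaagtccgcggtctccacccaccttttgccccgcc
Chac1 (chr2:119351013-119351092, plus strand): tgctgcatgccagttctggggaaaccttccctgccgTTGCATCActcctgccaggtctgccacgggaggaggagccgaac
Ppp1r15a (chr7:45526269-45526348, minus strand): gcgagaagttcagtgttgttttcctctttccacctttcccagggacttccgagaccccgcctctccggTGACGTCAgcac
These are matches of letters, not measured sites, and for the other 7 genes only these windows were searched.

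The kinases moved apart from each other. Eif2ak3 (chromosome 6, 70844484 to 70905241, plus strand; coordinates of genes are GRCm38.p6) encodes PERK, the kinase of the endoplasmic reticulum membrane that responds to unfolded proteins in its lumen. The control libraries held 7.87, 6.07 and 6.58 CPM, the HD-het libraries 12.6, 10.8 and 15.4 and the HD-homo libraries 7.59, 8.64 and 9.58. Every HD-het library lay above every other library, and the HD-homo libraries overlapped the control libraries. Eif2ak3 was 1.89-fold higher in the HD-het than in the control line (log2 fold change 0.92, SE 0.158, adjusted p = 0.000454). In the HD-homo line it was lower than in the HD-het line, by a log2 change of -0.58 (SE 0.157, adjusted p = 0.00619). Against the control line its value in HD-homo was 0.33, with a 95% interval from -0.02 to 0.68 (adjusted p = 0.114). With offsets for GC content and coding length, the difference between HD-homo and HD-het did not pass the test (-0.15, adjusted p = 0.38), and that between HD-homo and control did (0.45, adjusted p = 0.0326). A small nucleolar RNA gene, Gm23346, lies within its span.

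Eif2ak1 (chromosome 5, 143817792 to 143902717, plus strand) encodes HRI, which is held inactive by heme and is reached by mitochondrial damage through OMA1 and DELE1. The control libraries held 33.5, 32.9 and 34.4 CPM, those of HD-het 28.5, 27.7 and 27.7 and those of HD-homo 33.5, 41.9 and 34.7. The HD-het libraries were the lowest and lay close together, and HD-homo replicate 2 stood above the rest. HRI footprints fell by 0.26 on the log2 scale in HD-het against the control line (SE 0.0961, adjusted p = 0.0325). This call was lost when any 1 of the 3 control or 3 HD-het libraries was left out (adjusted p from 0.0543 to 0.0862, log2 change from -0.29 to -0.25). With offsets for GC content and coding length the value was -0.52 (adjusted p = 0.00054). HD-homo exceeded the HD-het line by 0.39 (SE 0.0962, adjusted p = 0.00358) and the control line by 0.13, which did not pass (95% interval -0.08 to 0.34, adjusted p = 0.303). The genes Ankrd61 and Aimp2 overlap its span.

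Eif2ak4 (chromosome 2, 118388583 to 118475234, plus strand) encodes GCN2, which responds to uncharged tRNA and to colliding ribosomes. Control libraries held 17.8, 20.2 and 19.7 CPM, HD-het libraries 17.9, 18.8 and 18.9 and HD-homo libraries 18.0, 18.9 and 16.7. All 3 lines overlapped. The log2 change was -0.05 in HD-het (95% interval -0.26 to 0.15) and -0.11 in HD-homo against the control line (95% interval -0.31 to 0.10), with adjusted p of 0.64 and 0.375. GCN2 has the longest coding sequence of the 10 genes, 4944 bases. With offsets for GC content and coding length its log2 change was -0.46 in HD-het against the control line (adjusted p = 0.000914) and 0.53 in HD-homo against the HD-het line (adjusted p = 0.000257), where it was -0.05 without them. A difference of Eif2ak4 between lines is therefore not settled by these counts.

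Eif2ak2, which encodes PKR, the kinase for double-stranded RNA, belongs to the closest paralogs that were compared with the 10 genes. It was lower in the HD-het than in the control line (log2 fold change -0.32, adjusted p = 0.00903) and higher in the HD-homo line (0.67, adjusted p = 9.66e-05). Per kilobase of coding sequence PKR carried the most footprints of the 4 kinases in each line, 35.8 ± 1.75 CPM per kb in control, 28.6 ± 1.36 in HD-het and 57.0 ± 5.52 in the HD-homo line (SD, n = 3 each). Of the footprint density of the 4 kinases together, PERK took 3.41% ± 0.374 in control, 7.54% ± 1.30 in HD-het and 3.10% ± 0.149 in the HD-homo line. The HD-het libraries, with 6.23% to 8.82%, did not overlap the other 6. PKR took 59.8% ± 0.976, 55.8% ± 1.63 and 68.7% ± 2.72 in the same order, so its share was highest in the HD-homo line. The HRI share was 30.3% ± 0.729, 29.4% ± 1.26 and 23.9% ± 2.52, and that of GCN2 was 6.51% ± 0.618, 7.31% ± 0.0596 and 4.37% ± 0.488. Shares of a library are parts of the same whole, so a higher PKR density by itself lowers the other shares. From control to the HD-homo line, the HRI density went from 18.1 ± 0.407 to 19.8 ± 2.46 CPM per kb. That of PERK went from 2.05 ± 0.277 to 2.57 ± 0.297, and that of GCN2 from 3.89 ± 0.259 to 3.61 ± 0.225. These shares are densities of footprints and not amounts of active kinase.

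Atf4 (chromosome 15, 80255184 to 80257545, plus strand) encodes the central transcription factor of the response. Its control libraries held 43.5, 38.4 and 41.5 CPM, its HD-het libraries 87.4, 90.2 and 82.6 and its HD-homo libraries 45.5, 45.0 and 69.4. The HD-het libraries lay close together above all others, and HD-homo replicate 3 stood between its sister libraries and HD-het. Atf4 was 2.11-fold higher in the HD-het than in the control line (log2 fold change 1.08, SE 0.149, adjusted p = 9.47e-05). In HD-homo against the control line it was 0.37 (SE 0.149), which did not pass (adjusted p = 0.0614) although the libraries did not overlap. Without HD-homo replicate 3 it was 0.14 (adjusted p = 0.245). Without HD-homo replicate 1 or 2 it passed (0.47 and 0.48, adjusted p = 0.0289 and 0.022), and with total counts in place of TMM factors it passed too (adjusted p = 0.0393). The HD-homo line had less Atf4 than the HD-het line, by a log2 change of -0.71 (SE 0.148, adjusted p = 0.00131). The Atf4 mRNA has upstream reading frames that ribosomes also translate, and the part of the mRNA over which fragments were counted is not given in the sources used here. A rise on the coding sequence and a rise on the upstream frames therefore cannot be told apart, which holds for Atf5, Ddit3 and Ppp1r15a as well.

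Atf5 (chromosome 7, 44812256 to 44816658, minus strand), the closest relative of Atf4, encodes a factor that is translated by the same means and is linked to the mitochondrial unfolded protein response. It was at 5.46, 4.52 and 3.65 CPM in control, 25.9, 22.6 and 18.8 in HD-het and 5.65, 3.59 and 6.61 in HD-homo libraries. The lowest HD-het library exceeded all libraries of the other 2 lines, which overlapped each other. Atf5 was 4.94-fold higher in the HD-het than in the control line (log2 fold change 2.31, SE 0.215, adjusted p = 5.62e-06). The HD-homo line was 4.25-fold below the HD-het line (log2 fold change -2.09, SE 0.213, adjusted p = 6.14e-06) and differed from the control line by 0.22 (95% interval -0.28 to 0.71, adjusted p = 0.462). Nup62 and Il4i1b overlap the annotated span of Atf5.

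Ddit3 (chromosome 10, 127290793 to 127296291, plus strand) encodes CHOP, a C/EBP-family factor of prolonged stress. Footprints came to 3.02, 3.12 and 3.12 CPM in control, 10.7, 8.33 and 8.46 in HD-het and 4.06, 4.17 and 6.39 in HD-homo libraries. The lines did not overlap and stood in the order control, HD-homo, HD-het. Against control, the log2 fold change of the HD-het line was 1.57 (SE 0.186, adjusted p = 3.09e-05) and that of the HD-homo line 0.64 (SE 0.191, adjusted p = 0.0172). HD-homo lay below the HD-het line by a log2 change of -0.92 (SE 0.18, adjusted p = 0.000794). The HD-homo call was lost without HD-homo replicate 3 (0.41, adjusted p = 0.0572) and without control replicate 1 (0.61, adjusted p = 0.0554). Mbd6 and Mars1 overlap its span.

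Atf3 (chromosome 1, 191170296 to 191183333, minus strand) encodes a factor that is induced both by ATF4 and, as an immediate early gene, by serum and growth signals. The control libraries were close together at 4.58, 4.28 and 4.29 CPM, while the HD-het libraries held 9.68, 8.88 and 6.24 and the HD-homo libraries 5.56, 13.3 and 8.65. All 6 mutant libraries lay above the control libraries, and the 2 mutant lines overlapped. Atf3 rose in both: by 0.92 in HD-het (SE 0.274, adjusted p = 0.0126) and by 1.05 in the HD-homo line (SE 0.274, adjusted p = 0.00862), as log2 fold changes. The difference between the 2 mutant lines was 0.13 with a 95% interval from -0.45 to 0.71 (adjusted p = 0.678). Without HD-het replicate 1 the HD-het call was lost (0.79, adjusted p = 0.0546). Without HD-homo replicate 2 the HD-homo value was 0.68 (adjusted p = 0.0262). The summed level of 12 other immediate early genes was 947, 1647 and 1373 CPM in HD-homo replicates 1, 2 and 3, in the same order as Atf3, against 1069 to 1131 in control and 823 to 973 in HD-het libraries. Junb, Myc and Fosl1 made up the largest parts of this sum. Junb held 175, 540 and 357 CPM in the 3 HD-homo libraries. From control to HD-het, mean Myc went from 357 to 168 CPM and Fosl1 from 236 to 111. Against control, 5 of the 12 were higher and 3 lower in HD-het (31.0% and 29.1% of all genes tested, median log2 fold change 0.36). In HD-homo 4 were higher and 1 lower (23.3% and 22.3%, median 0.35). The part of these genes in the Atf3 values was not tested.

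Of the targets, Trib3 (chromosome 2, 152337425 to 152344060, minus strand) differed most. It encodes a pseudokinase that binds ATF4 and CHOP and restrains them. The control libraries held 5.73, 5.38 and 4.78 CPM, the HD-het libraries 35.5, 34.2 and 35.8 and the HD-homo libraries 7.45, 8.45 and 14.5. The 3 lines did not overlap, and the HD-het libraries lay within a narrow band. Trib3 was 6.63-fold higher in the HD-het than in the control line (log2 fold change 2.73, SE 0.21, adjusted p = 1.51e-06), and 3.53% of all genes tested had a larger value. In the HD-homo line it was 1.89-fold higher than in the control line (0.92, SE 0.212, adjusted p = 0.00433) and 3.50-fold below the HD-het line (-1.81, SE 0.2, adjusted p = 1.16e-05). Without HD-homo replicate 3, the highest of its line, the first of these values was 0.58 (adjusted p = 0.00289).

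Chac1 (chromosome 2, 119351242 to 119354326, plus strand) encodes an enzyme that degrades glutathione. It had 5.73, 6.30 and 5.79 CPM in control, 21.8, 18.2 and 20.5 in HD-het and 6.34, 4.17 and 8.25 in HD-homo libraries. The HD-het libraries stood apart, and the HD-homo libraries lay on both sides of the control level. The rise in the HD-het line was 3.38-fold (log2 fold change 1.76, SE 0.192, adjusted p = 1.7e-05). In HD-homo against the control line the value was 0.06 (95% interval -0.37 to 0.50, adjusted p = 0.82), or -0.17 without HD-homo replicate 3 (adjusted p = 0.487), and the HD-homo line was 3.23-fold below the HD-het line (-1.69, SE 0.192, adjusted p = 1.4e-05).

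Ppp1r15a (chromosome 7, 45522917 to 45526268, minus strand) encodes GADD34, the inducible subunit that directs protein phosphatase 1 to eIF2. Its levels were 4.32, 3.57 and 5.27 CPM in control, 6.34, 5.55 and 8.79 in HD-het and 3.70, 3.98 and 7.80 in HD-homo libraries. Every HD-het library exceeded every control library, by a small margin, and HD-homo replicate 3 reached into the HD-het range. The log2 fold change of 0.65 in the HD-het line (SE 0.283, 95% interval 0.03 to 1.27) did not pass (adjusted p = 0.0663). The call depended on the fit: DESeq2 (adjusted p = 0.0461), a fit of only the 6 control and HD-het libraries (0.0173), a block for replicate numbers (0.00827) and leaving out HD-homo replicate 3 (0.0163) each put it past the threshold. In HD-homo against the control line the value was 0.22 (adjusted p = 0.556), and against the HD-het line -0.43 (adjusted p = 0.2). Without HD-homo replicate 3 the first of these was -0.18 (adjusted p = 0.563) and the second -0.83 (adjusted p = 0.00864). Tulp2 overlaps its span. Ppp1r15b, which encodes CReP, the constitutive partner of the phosphatase, rose by 0.42 in the HD-het line (adjusted p = 0.00484) and was at -0.26 in the HD-homo line (adjusted p = 0.0665).

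The replicates of the HD-homo line were the least alike for these genes. The coefficient of variation over 3 replicates was highest in the HD-homo line for 8 of the 10 genes, as it was for 54.1% of all genes tested. The median coefficient of the 10 genes was 6.45% for the control, 11.7% for the HD-het and 28% for the HD-homo line, where that of all genes tested was 7.26%, 9.51% and 13%. HD-homo replicate 3 held the highest level of its line for 7 of the 10 genes, namely Atf4, Atf5, Ddit3, Trib3, Chac1, Ppp1r15a and Eif2ak3, and for 29.7% of all genes tested. The median log2 ratio of that library to the mean of the other libraries of its line was 0.58 over the 10 genes and 0.00 over all genes tested. For 48 further ATF4 target genes that library was highest in 23, with a median log2 ratio of 0.09. Control replicate 2 was the highest of its line for 25 of the 48, with a median of 0.11. No label tells HD-homo replicate 3 apart from the other HD-homo libraries.

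Per kilobase of coding sequence the order of the 10 genes and Eif2ak2 changed between lines. In the control line Atf4 (39.3 ± 2.45 CPM per kb) and Eif2ak2 (35.8 ± 1.75) came first and overlapped, followed by Eif2ak1 (18.1 ± 0.407), and Eif2ak3 (2.05 ± 0.277) came last without being separated from Ppp1r15a (2.22 ± 0.432). In the HD-het line Atf4 (82.9 ± 3.67) stood clear of the rest. Trib3 (33.1 ± 0.816), Chac1 (30.1 ± 2.69), Eif2ak2 (28.6 ± 1.36) and Atf5 (26.4 ± 4.19) followed, each overlapping the next. Trib3 thus took the 8th place in control, where it overlapped Atf5, and the 2nd in HD-het. In the HD-homo line Eif2ak2 (57.0 ± 5.52) and Atf4 (50.9 ± 13.4) led and overlapped, and Trib3, Chac1 and Ddit3 lay together at 9.35 to 9.66 CPM per kb. The lengths are those of the longest coding transcript and take no account of upstream frames.

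**Figure D3:**
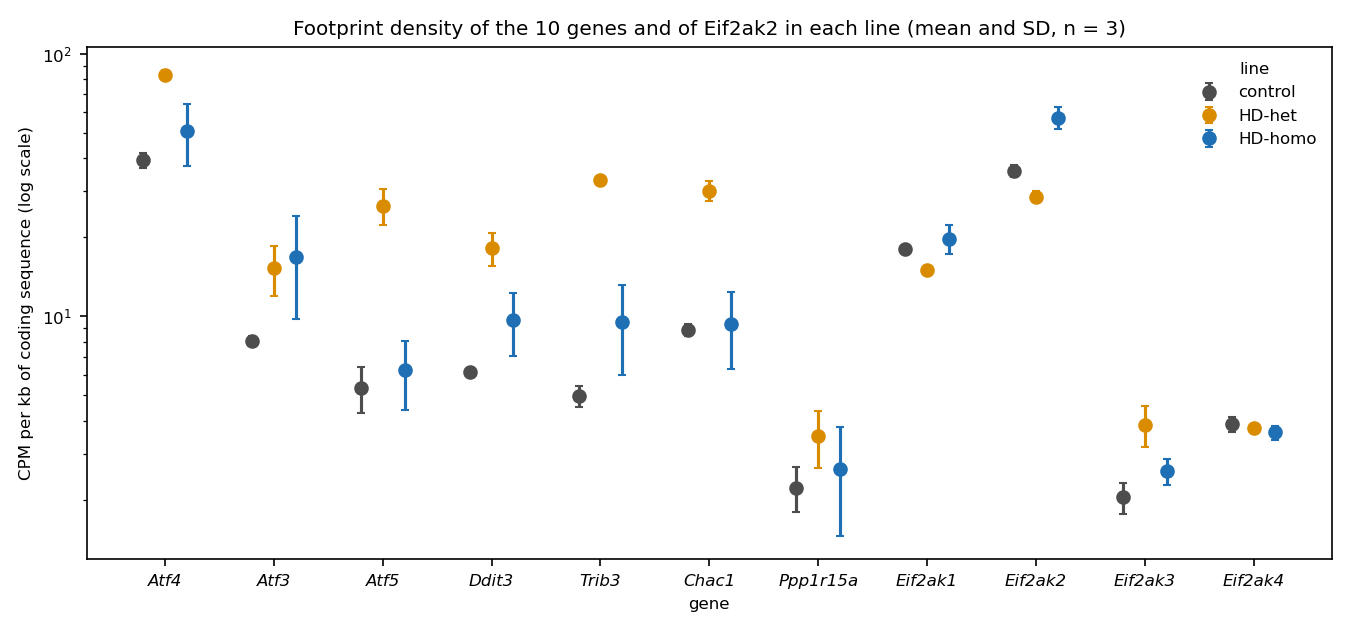
Mean footprints per kilobase of coding sequence (vertical axis, log scale, CPM per kb) of the 10 genes and Eif2ak2 in the 3 lines, with SD over 3 libraries. Atf4 is highest in control and the HD-het line and Eif2ak2 in the HD-homo line, and Trib3 rises from 4.98 in control to 33.1 in the HD-het line.

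The genes that surround the pathway were described by lists. Dnajc3, Atf6, Cebpb, Cebpg, Ppp1r15b and Oma1 each stand in more than 1 list and are counted in each, so the lists are not independent. Of all genes tested, 31.0% were higher and 29.1% lower in HD-het than in control. In HD-homo these shares were 23.3% and 22.3% against control, and 34.6% and 32.8% against HD-het. The counts of each list stand beside these shares. Of the 8 subunits of eIF2 and its exchange factor eIF2B, 0 were higher and 5 were lower in the HD-het than in the control line (median log2 fold change -0.44). Eif2s1, the alpha subunit that the kinases phosphorylate, was at 446 ± 11.8 CPM in control, 340 ± 5.59 in HD-het and 330 ± 8.77 in the HD-homo line (SD, n = 3 each). It fell by 0.39 in HD-het (adjusted p = 0.000489) and by 0.43 in the HD-homo line (adjusted p = 0.000339). The count of 0 was the same at an unadjusted p under 0.05 and by DESeq2. In the HD-homo line 4 of the 8 were lower and 1, Eif2b3, was higher (0.42, adjusted p = 0.00108).

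Among 10 regulators of the kinases and partners of the phosphatase, 5 were higher and 2 lower in the HD-het than in the control line (median 0.26). In the HD-homo line 1 was higher and 3 lower (median -0.05), where 23.3% and 22.3% of all genes tested were. Dnajc3, whose product P58IPK inhibits PERK and PKR, rose by 1.14 in the HD-het line (adjusted p = 7.53e-05) and was at -0.01 in the HD-homo line (adjusted p = 0.948). Impact, a competitor of GCN2 for its activator GCN1, fell by 1.88 in the HD-homo line (adjusted p = 1.08e-06) and was at 0.21 in the HD-het line (adjusted p = 0.213). Oma1, the mitochondrial protease upstream of HRI, rose by 0.42 in HD-het (adjusted p = 0.0322) and fell by 0.94 in the HD-homo line (adjusted p = 0.000635). Dele1, which carries the signal from OMA1 to HRI, rose by 0.48 in the HD-het line (adjusted p = 0.0168) and was at 0.02 in the HD-homo line (adjusted p = 0.926). Of 10 mitochondrial chaperones and proteases, Oma1 among them, 2 were higher and 5 lower in HD-het, and 0 were higher (also at an unadjusted p under 0.05 and by DESeq2) and 6 lower in the HD-homo line. The chaperonin gene Hspd1 fell in both, by 1.00 (adjusted p = 3.85e-05) and 0.74 (adjusted p = 0.000473).

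Of the 48 further ATF4 targets, 31 were higher and 8 lower in the HD-het than in the control line, with a median log2 fold change of 0.48. Between the HD-homo and the control line 11 were higher and 11 lower (median -0.06), shares close to those of all genes tested. In HD-homo against the HD-het line 5 were higher and 30 lower (median -0.40). Their summed level was 6910 to 7563 CPM in control, 8755 to 8861 in HD-het and 6765 to 7150 in HD-homo libraries, so only the HD-het libraries stood apart. The 4 most abundant were Eprs, Nars, Psat1 and Gars. The tRNA synthetase genes Eprs, Nars and Gars rose in the HD-het line by 0.67, 0.73 and 0.45 (adjusted p = 0.000398, 2.99e-05 and 0.000516), whereas Psat1, of serine synthesis, fell by 0.41 (adjusted p = 0.000886). Between HD-homo and control these 4 lay between -0.27 and 0.11 and did not pass (adjusted p from 0.0707 to 0.593). Slc7a11, Gdf15, Slc1a5 and Stc2, outside the rule for names, were picked out after their values were seen. Slc7a11, the cystine transporter gene, had the largest rise of the list in the HD-het line (2.08, adjusted p = 5.74e-07) and a smaller one in the HD-homo line (0.45, adjusted p = 0.0209). Gdf15, a secreted stress signal, had 6, 5 and 2 counts in control, 6, 12 and 11 in HD-het and 130, 108 and 124 in HD-homo libraries, and was 30.9-fold higher in HD-homo than in the control line (log2 fold change 4.95, adjusted p = 6.43e-07). Slc1a5 had the largest fall of the list in the HD-het line (-1.34, adjusted p = 6.15e-05) and was at -1.93 in HD-homo (adjusted p = 5.47e-06). Stc2 had the largest fall in the HD-homo line (-2.13, adjusted p = 7.92e-05) and rose by 1.09 in HD-het (adjusted p = 0.00164).

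Of 24 genes of the ATF6 and XBP1 arms of the unfolded protein response, which act beside PERK in the endoplasmic reticulum, 23 were tested. In HD-het against the control line 19 of them were higher and 1 was lower (median 0.67). Between the HD-homo and the control line 0 were higher, also at an unadjusted p under 0.05 and by DESeq2, and 2 were lower (median -0.07). Compared with HD-het, in HD-homo 1 was higher and 19 were lower (median -0.94). Hspa5, the luminal chaperone BiP, rose from 1709 ± 359 CPM in control to 3556 ± 441 in the HD-het line (log2 fold change 1.06, adjusted p = 0.000216) and was at 1800 ± 280 in the HD-homo line (0.07, adjusted p = 0.741; SD, n = 3 each). Hsp90b1, Calr and Pdia3, the other chaperones and folding enzymes among the 4 most abundant, rose in the HD-het line by 0.62, 0.50 and 1.06 (adjusted p = 0.011, 0.0105 and 0.000176). The summed level of the list was 8021 to 11593 CPM in control, 15917 to 20373 in HD-het and 8383 to 10687 in HD-homo libraries. Of the mesenchymal and smooth muscle markers, 7 of 7 tested rose in the HD-het line against control. Col1a1 averaged 3343 CPM in control, 16518 CPM in the HD-het and 4567 CPM in the HD-homo line. Acta2 was at 4099, 8386 and 267 CPM and Tagln at 535, 3212 and 47.5 CPM in the same order, so both were lowest in HD-homo, whereas Col1a2 was highest there (24.0, 88.9 and 1027 CPM). The part of these genes was not tested.

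**Figure D4:**
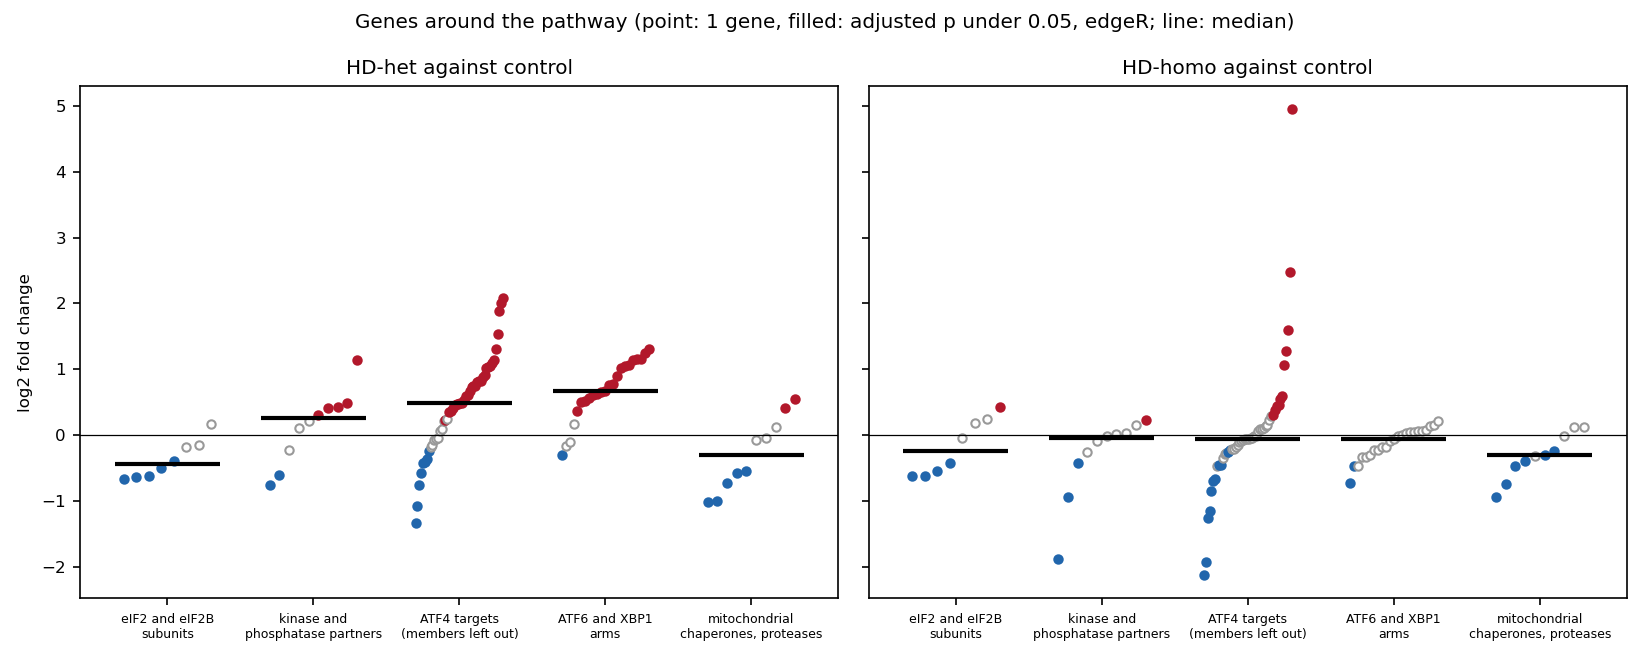
Log2 fold change (vertical axis) of each gene of 5 lists around the pathway in HD-het and in the HD-homo line against control; filled points passed the adjusted p of 0.05, red higher and blue lower, and the black line is the median. In the HD-het line the ATF4 targets (median 0.48) and the ATF6 and XBP1 arms (median 0.67) lie mostly above 0, and in the HD-homo line their medians are -0.06 and -0.07.

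The closest paralogs of the 10 genes numbered 12, of which 11 were tested. In HD-het against the control line 6 were higher and 2 lower, where 31.0% and 29.1% of all genes tested were. In the HD-homo line 2 were higher and 2 lower, where 23.3% and 22.3% of all genes tested were. Jdp2, a relative of Atf3, rose by 1.25 in the HD-het line (adjusted p = 0.000442) and was at -0.37 in the HD-homo line (adjusted p = 0.204). Cebpb and Cebpg, which encode partners of ATF4 and CHOP, rose in the HD-het line by 0.74 (adjusted p = 0.00124) and 0.48 (adjusted p = 0.000472). Cebpb rose in the HD-homo line too, by 0.44 (adjusted p = 0.0322), where Cebpg was at -0.06 (adjusted p = 0.606). The tribbles genes went opposite ways in the HD-het line: Trib2 rose by 0.91 (adjusted p = 0.000665) with Trib3, and Trib1 fell by 1.24 (adjusted p = 1.19e-06).

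Among 14 other ATF and CREB factors, 12 were tested. Of these 5 were higher and 1 lower in HD-het than in the control line (31.0% and 29.1% of all genes tested). In HD-homo 1 was higher and 2 were lower than in the control line (23.3% and 22.3%). Atf6, the sensor of the arm of that name, rose by 0.76 in the HD-het line (adjusted p = 0.000539) and fell by 0.48 in the HD-homo line (adjusted p = 0.0142). Creb3, a membrane-bound factor of the endoplasmic reticulum, rose by 0.74 in the HD-het line (adjusted p = 1.78e-05), while Atf1, the most abundant of the list, fell by 1.21 (adjusted p = 5.78e-07). Atf7, the fourth by abundance, was at -0.19 in HD-het and 0.21 in the HD-homo line (adjusted p = 0.128 and 0.109). Creb3l1 and Creb3l2, outside the rule for names, were picked out after their values were seen. Creb3l1 had the largest rise of the list in HD-het (3.22, adjusted p = 1.49e-08) and was at 0.15 in HD-homo (adjusted p = 0.366). Creb3l2 rose by 0.84 in HD-het (adjusted p = 8.46e-05) and by 1.27 in HD-homo (adjusted p = 4.27e-06).

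The genes whose log2 CPM followed each of the 10 most closely over the 9 libraries were sought among 7722 genes with a mean of at least 10 CPM. With 3 lines of 3 libraries each, such a correlation can be set by the 3 line means alone, since libraries of 1 line are not independent. Closest to Atf4 were Rexo2 (Pearson's r = 0.981), Trib3 (0.98) and Txnip (0.979). Closest to Ddit3 was Gadd45a (0.99), a growth arrest gene. Trib3 was followed most closely by Zak (0.99), Ptgs2 (0.986) and Lgr4 (0.984), and Atf5 by Trim35 (0.989), Itgbl1 (0.986) and Itga1 (0.986). For Chac1 they were Zfp507 (0.984), Cpe (0.982) and Lemd2 (0.981), and for Atf3 Ctdspl2 (0.978), Cast (0.975) and Smim8 (0.967). Of the kinases, Eif2ak3 was closest to Dnajc1 (0.962), which encodes a membrane chaperone partner of the endoplasmic reticulum, and Eif2ak1 to Cyld (0.986). The weakest nearest partners were those of Ppp1r15a, Uri1 (0.932), and Eif2ak4, Usp48 (0.888), the 2 genes that passed no test of any difference among the lines (adjusted p = 0.122 and 0.557).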

How the data were processed

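Per the labels, footprints of 26 to 32 nt were sequenced, and the authors deposited their raw counts by gene symbol, 1 column per library, neither normalized nor pooled. The submitters' processing notes name cutadapt, Bowtie 1.0.1 and mm10. The annotation, the counted part of each mRNA and the use of strand are not given in the sources used here, so fragments of overlapping genes cannot be told apart. Matched mRNA was not used, so values are footprint abundances and not translational efficiencies. Differences were tested on the counts of all 9 libraries with edgeR 4.0.16 (limma 3.58.1, R 4.3.3), with TMM factors, filterByExpr, line means as the only terms, and Benjamini-Hochberg adjustment over 12678 genes at 0.05. All 10 genes passed the filter. CPM were divided by TMM-scaled totals, and correlations used log2 CPM with a prior count of 2. There were 26 rows with a date as symbol, with 0.252% of all counts. They were kept in the tests. Coding lengths and GC content came from GENCODE M21. The fit was tested on simulated data. The 10 genes, the lists and the tests were chosen with earlier results of these data known. The text names the 10 genes, the 4 most abundant genes of a list or any gene of a list of up to 12, the 3 genes closest in profile, and genes marked as picked later.
Alternatives were RLE factors, total counts, DESeq2 1.42.0, a minimum of 10 counts in every library, no filter, a replicate block, only the 6 libraries compared, leaving out each library, and, chosen after the data were seen, offsets for GC content and coding length (loess span 0.5, values for 98.19% of the genes).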

Additional observations from a re-analysis of the deposited data

How the results depend on the processing

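The 10 genes in 3 comparisons gave 30 values, each refitted under 17 settings, of which 9 leave out a library. Of the 510 refitted values 487 kept their side of the threshold and, where called, their direction, 11 were no longer past it, 11 were newly past it and 1 turned its direction and passed. The last was Eif2ak4 in HD-homo against the HD-het line, at 0.53 with offsets for GC content and coding length. In 20 of the 30 no setting changed the call, among them Atf4, Atf5, Ddit3, Trib3, Chac1 and Eif2ak3 in HD-het against the control line. The number of the 10 genes lower in the HD-het than in the control line was 0 with at least 10 counts in every library, 2 with the offsets and 0 to 1 when a library was left out. It was 0 without each of the 3 control and the 3 HD-het libraries. With the offsets 2 of them exceeded the HD-het line in HD-homo.

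With total counts in place of TMM factors the median log2 fold change of the eIF2 and eIF2B subunits was -0.50 in HD-het against control and 0.18 in HD-homo against the HD-het line. In the latter comparison the medians with total counts were -0.29 for the regulators and phosphatase partners, -0.31 for the paralogs, -0.21 for the other ATF and CREB factors and -0.32 for the ATF4 targets. The levels per kilobase with total counts were 32.1 CPM for Trib3 and 14.6 CPM for Eif2ak1 in the HD-het line. Only the scaling differs between these values and those of the main fit.

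Replicate numbers were not taken as pairs, since the labels do not tie them. The deviations of same-numbered libraries from their line means correlated from -0.36 to 0.18 across genes. For libraries of different lines and different numbers the range was -0.275 to 0.376. The replicate block put Ppp1r15a past the threshold in HD-het against control (adjusted p = 0.00827) and in HD-homo against the HD-het line (adjusted p = 0.0307), and it changed no other call of the 10 genes. With 3 libraries of 1 line each, the tests measure the spread between libraries of these lines only. The main fit uses 1 estimate of that spread for all 3 lines.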
